A study of Mus musculus with 6 samples.

Results

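The Sox genes encode transcription factors that bind DNA through a high mobility group box. Here 10 of them were followed in cells sorted from the mouse genital tubercle, the precursor of the external genitalia in both sexes. The members were all probe sets annotated to Sox2, Sox4, Sox5, Sox6, Sox9, Sox10, Sox11, Sox12, Sox17 or Sox18, 38 probe sets for 10 genes out of 45101 probe sets on the array. These 10 genes were chosen with the comparison of the sorted fractions already known, so their differences are given as a description. No p-value is printed for a member, and counts of members under a p threshold are no independent test.

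The comparison was between sorted fractions. Reporter-positive cells, labelled urethral epithelium, and all remaining, reporter-negative cells of the tubercle came from embryos of the same genotype at 12.5 dpc, Theiler stage TS20, on a mixed background. All embryos carried Shhtm1(EGFP/cre)Cjt, which makes EGFP and Cre from the Shh locus, and Gt(ROSA)26Sortm3(CAG-EYFP)Hze, which makes EYFP after Cre has acted. EYFP therefore also stays on in descendants of cells that once used the Shh locus, and the sort reads fluorescence, not Shh itself. Each fraction had 3 arrays, and each array held RNA from pooled male and female littermates, 3, 5 and 2 embryos for replicates 1, 2 and 3 of either fraction.

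Sox factors are grouped by sequence. Sox2, of the SoxB1 group, keeps progenitor cells of foregut, taste bud and neural epithelia. Sox4, Sox11 and Sox12 form the SoxC group, active in embryonic mesenchymal and neuronal progenitors. Sox9 and Sox10 belong to SoxE, Sox9 driving cartilage formation and also serving epithelial progenitors, Sox10 serving neural crest, glia and melanoblasts. Sox5 and Sox6, of SoxD, lack an activation domain of their own and assist Sox9 in cartilage. Sox17 and Sox18, of SoxF, act in endothelium, and Sox17 also in endoderm.

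Promoter windows of Sox2 and of the SoxC genes are printed because Sox2 had the largest difference of the members after quantile normalization and the SoxC genes were above background in most arrays. Each line runs 5′ to 3′ from 250 bases before to 50 bases after the annotated start, from RefSeq on GRCm38.p6. The windows are chr3:34649745-34650044 on the plus strand for Sox2, and, all on the minus strand, chr13:28953650-28953949 for Sox4, chr12:27342669-27342968 for Sox11 and chr2:152397997-152398296 for Sox12. Capitals mark CCAAT or its reverse ATTGG, and the Sox core motif ACAAAG or its reverse CTTTGT.
Sox2: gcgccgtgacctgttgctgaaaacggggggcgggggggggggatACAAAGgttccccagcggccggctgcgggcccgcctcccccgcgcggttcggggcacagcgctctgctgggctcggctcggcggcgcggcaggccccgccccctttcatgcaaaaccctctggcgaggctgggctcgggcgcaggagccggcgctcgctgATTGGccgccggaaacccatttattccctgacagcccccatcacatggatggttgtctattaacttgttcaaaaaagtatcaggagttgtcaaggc
Sox4: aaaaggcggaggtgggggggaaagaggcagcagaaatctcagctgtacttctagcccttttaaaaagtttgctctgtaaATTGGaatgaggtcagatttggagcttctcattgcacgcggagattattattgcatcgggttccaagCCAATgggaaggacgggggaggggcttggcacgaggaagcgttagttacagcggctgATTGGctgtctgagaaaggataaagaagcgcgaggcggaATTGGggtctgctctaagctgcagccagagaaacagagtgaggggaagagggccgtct
Sox11: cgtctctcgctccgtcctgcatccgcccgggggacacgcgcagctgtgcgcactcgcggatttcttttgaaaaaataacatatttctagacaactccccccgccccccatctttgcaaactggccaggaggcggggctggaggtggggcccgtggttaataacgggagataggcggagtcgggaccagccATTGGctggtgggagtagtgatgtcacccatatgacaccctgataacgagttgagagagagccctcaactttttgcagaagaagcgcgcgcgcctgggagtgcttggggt
Sox12: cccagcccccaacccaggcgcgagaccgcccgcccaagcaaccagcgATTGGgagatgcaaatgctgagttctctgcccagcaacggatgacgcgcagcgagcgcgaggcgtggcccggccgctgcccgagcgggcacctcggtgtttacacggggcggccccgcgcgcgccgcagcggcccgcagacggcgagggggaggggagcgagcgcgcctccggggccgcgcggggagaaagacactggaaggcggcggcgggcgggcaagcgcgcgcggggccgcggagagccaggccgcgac
CCAAT, on either strand, was in all 4 windows, once each in Sox2, Sox11 and Sox12 and 4 times in Sox4. In Sox2, Sox11 and Sox4 a copy began 46, 60 and 47 bases before the start, and in Sox12 the copy began 203 bases before it. Of the 10 genes 6 had windows in the promoter table, with several starts for Sox6, 11 windows in all, and 7 of these 11 held CCAAT, against 37.4% of 32851 windows of all genes. ACAAAG was in 6 of the 11, the Sox2 window and 5 of Sox6, against 18.7% of all windows. A second core form, ACAATG or its reverse CATTGT, is not in any of the 4 printed windows and was in 3 of the 11, 1 of Sox5 and 2 of Sox6, against 12.6% of all windows. No motif searched shares letters with another at these positions in the printed windows, and a match shows the letters and no binding.

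Array signal differed and touches every value below. The median deposited signal of named probe sets was 0.34 to 4.73 in positive arrays and 2.15 to 8.84 in negative arrays, while control transcripts added at hybridization averaged 1443 to 1884. Positive replicate 3 stood apart. It had 24.6% of named probe sets above the brightest unspiked bacterial control of its array, a measure of background, against 44.0% to 59.3% in the other 5. Its Spearman correlations with them, across named probe sets, were 0.325 to 0.345, while those among the other 5 were 0.716 to 0.862. Each main result is therefore given with and without that array. For comparison between arrays the signals were quantile normalized and taken as log2(signal + 16), so that values near 4 are at the bottom of this scale.

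The epithelial label was checked against marker lists. Of 15 measured epithelial markers 14 lay higher in all positive arrays than in any negative one, with a median log2 difference of 2.14. The mesenchymal list of 15 had a median of -1.45, but relative to the negative mean its members had medians of -0.03, -2.35 and -1.96 in the 3 positive arrays, in replicate order. Positive replicate 1 thus held mesenchymal transcripts close to the level of negative arrays. The 10 erythroid markers had a median of -1.0 and the 10 leukocyte markers one of 0.31, and none was called. Without positive replicate 3 the erythroid median was -1.66, with 5 of 8 tested called lower, and the leukocyte median 0.44, with 12 of 12 positive and 3 called higher (limma). The part of mesenchymal and blood transcripts in the Sox results was not tested. In bulk RNA, fewer cells of a type and less RNA per cell cannot be told apart.

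Sox2 had the largest difference of the 10 genes by their brightest probe sets after quantile normalization. Its single probe set had deposited signals of 70.8, 94.5 and 2.92 in positive arrays, given here and below in replicate order, against 4.37, 5.58 and 2.24 in negative arrays. The dimmest positive array thus read below 2 of the 3 negative ones before scaling. Relative to the brightest unspiked control of the same array, the signal was 15.8, 21.4 and 2.61 times as high in the positive arrays and 0.815, 0.674 and 1.10 times in the negative arrays. All 3 positive arrays were above background, while 2 negative arrays were below it and the third just above. After normalization Sox2 measured 6.57, 7.35 and 7.42 in positive arrays and 4.21, 4.24 and 4.37 in negative arrays. The means were 7.11 ± 0.47 and 4.27 ± 0.08 (SD, n = 3 each). The difference on the log2 scale was 2.84 with an SE of 0.39. The fractions did not overlap. Without positive replicate 3 the difference was 2.86 (SE 0.31). Leaving out any single array gave 2.46 to 3.15, and the size depended more on the scale, with 1.69 after median centring, 1.48 with a pseudocount of 64 and 4.84 with a pseudocount of 1.

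**Figure D1:**
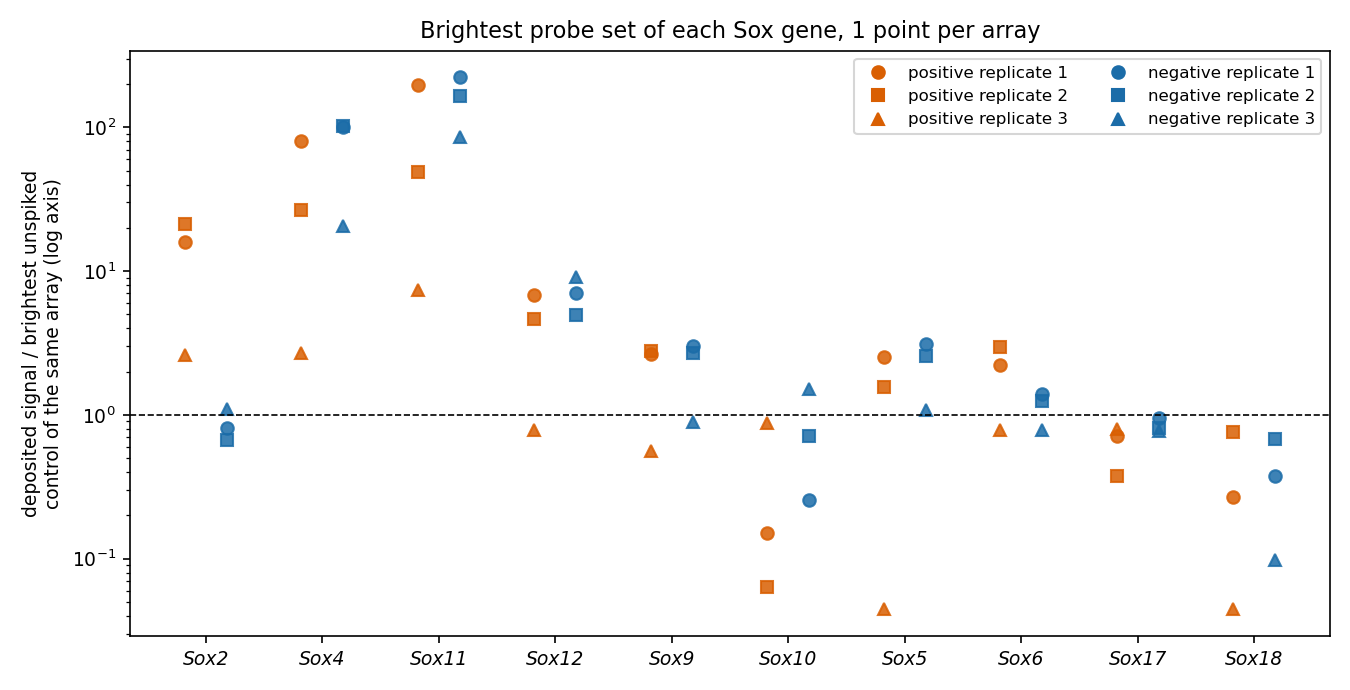
Deposited signal of the brightest probe set of each Sox gene, divided by the brightest unspiked control of the same array (log axis, dashed line at 1); 1 point per array, orange for positive and blue for negative arrays, with the symbol giving the replicate. Sox2 is above 1 in all 3 positive arrays and close to or below 1 in the negative ones, Sox4 and Sox11 are above 1 in all 6 arrays, and Sox17 and Sox18 are below 1 in all 6.

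Over the 6 arrays, limma called 0 of the 9 member genes that passed the filter on low values at an adjusted p under 0.05 (Sox18 did not pass it). The same fit called 0.0142% of 14071 genes. At an unadjusted p under 0.05 the count was 1, Sox2, beside 5.17% of all genes. Without positive replicate 3 it called 1 of 9, Sox2, as higher, where 0.602% of 13960 genes were called, 0.552% higher and 0.0501% lower. At an unadjusted p under 0.05 the count was then 2, Sox2 and Sox6, beside 9.15% of all genes. Over the 6 arrays the fractions did not overlap for Sox2 and Sox6, 2 of 9, both higher in positive arrays. Of all genes tested 13.3% did not overlap, with 6.29% higher and 6.99% lower in positive arrays. Among probe sets, 0 of 32 tested members were called over 6 arrays (limma), where 0.0127% of all tested probe sets were called. At an unadjusted p under 0.05 there were 4 of 32, beside 4.25% of all probe sets tested. Without positive replicate 3, 1 of 31 was called (limma), where 0.441% of all tested probe sets were called, 0.365% higher and 0.0761% lower. At an unadjusted p under 0.05 there were then 7 of 31, beside 7.60% of all probe sets tested. No count here is independent of how the genes were chosen.

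The genes most like Sox2 over the 6 arrays after quantile normalization included epithelial transcripts. Among 611 tested genes whose SD over the 6 arrays was at least 1, the 4 most like Sox2 were Krt8 and Krt18, paired keratins of simple epithelia, Shh, the hedgehog ligand whose locus drives the sort, and Ptprf, a receptor tyrosine phosphatase at cell contacts. Pearson's r across the 6 arrays was 0.9998, 0.998, 0.998 and 0.996 for Krt8, Shh, Krt18 and Ptprf. These points share the split into 2 fractions and the same arrays, so r mostly restates that split. Krt8 measured 8.20, 9.45 and 9.63 in positive arrays and 4.52, 4.65 and 4.73 in negative arrays. As for Sox2, positive replicate 1 was the lowest of the positive arrays in all 4 of these genes after normalization. As deposited, positive replicate 3 was the lowest positive array for Sox2 and Shh, at 2.92 and 16.9. The order of arrays within the positive fraction therefore depended on the scaling.

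**Figure D2:**
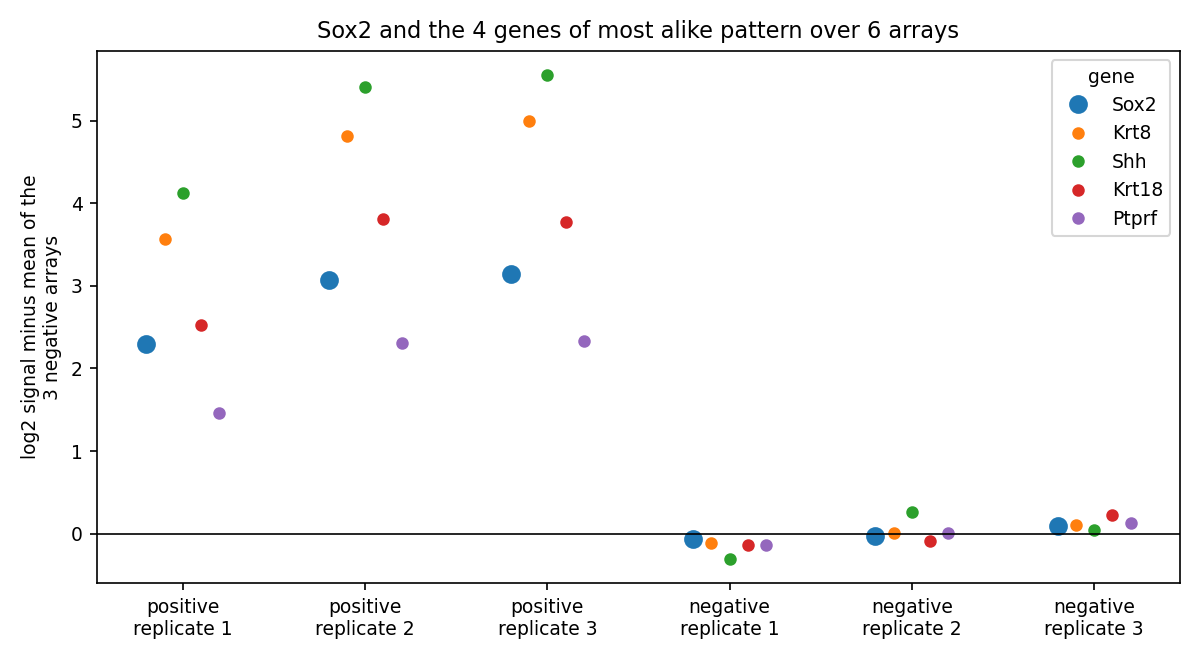
Normalized log2 signal minus the mean of the 3 negative arrays for Sox2 and the 4 genes most like it, by array; colours give the gene. In each of the 5 genes positive replicate 1 is lower than positive replicates 2 and 3, and the negative arrays lie near 0.

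The partner and progenitor genes of Sox2 did not move as a list. Of 19 measured and 14 tested genes, 9 differences were positive and 5 negative, with a median of 0.08 against -0.03 for all genes tested. None was called over the 6 arrays and 1, Klf5, without positive replicate 3 (limma, adjusted p = 0.00801). Klf5, a zinc finger factor of proliferating epithelia, measured 6.96 ± 1.0 in positive and 4.56 ± 0.20 in negative arrays (SD, n = 3 each). Trp63, the p63 factor of stratified epithelia, measured 6.99 ± 1.10 in positive and 4.93 ± 0.11 in negative arrays. Fgfr2, a fibroblast growth factor receptor, and Chd7, a chromatin remodeller that binds Sox2, differed by 0.98 (SE 0.47) and 0.61 (SE 0.42). Of these, Klf5 and Trp63 had fractions that did not overlap. Pou5f1, Pou3f1, Lin28b and Nkx2-1 were not above the unspiked controls in any array.

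Sox4 was measured by 8 probe sets that differed in sign. Of these, 3 exceeded the unspiked controls in all 6 arrays. The brightest, 1433575_at, read 358, 116 and 3.01 as deposited in positive arrays and 542, 839 and 41.8 in negative arrays. Normalized, it measured 7.97 ± 0.71 in positive and 7.98 ± 0.83 in negative arrays (SD, n = 3 each), a difference of -0.01 (SE 0.51). Its fractions overlapped, with positive replicate 1 the highest of the 6 arrays and negative replicate 3 the lowest.

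Both other bright Sox4 probe sets were higher in positive arrays. Normalized, 1419155_a_at measured 6.87, 6.39 and 7.67 in positive arrays and 5.32, 5.96 and 6.20 in negative arrays, a difference of 1.15 (SE 0.47). For 1419156_at the values were 6.97, 6.87 and 6.76 in positive arrays and 5.48, 6.09 and 6.35 in negative arrays, a difference of 0.90 (SE 0.41). Neither overlapped between fractions, and without positive replicate 3 the differences were 0.84 (SE 0.37) and 0.98 (SE 0.37). The sign depended on the scaling. Both were -0.16 after median centring and -0.35 on values as deposited, where the median of all named probe sets lay at -0.22. A dim one, 1449370_at, was lower in all positive arrays, at 4.14 ± 0.19 against 4.54 ± 0.07 in negative arrays (SD, n = 3 each), and exceeded the unspiked control in 1 positive array and 3 negative arrays. The remaining 4 differed by 0.01 to 0.44, or by -0.13 to 0.29 without positive replicate 3, and their fractions overlapped over 6 arrays.

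Sox11 was bright in every negative array and varied widely among positive ones. All 6 probe sets had a negative difference, from -0.12 to -1.50, with a median of -1.18. The brightest, 1431225_at, read 878, 216 and 8.27 as deposited in positive arrays and 1193, 1377 and 173 in negative arrays. Normalized, it measured 9.86, 8.39 and 9.10 in positive arrays and 9.56, 9.26 and 8.88 in negative arrays, a difference of -0.12 (SE 0.37). The highest of the 6 values was in positive replicate 1 and the lowest in positive replicate 2, so its fractions overlapped.

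Only 1 of the 6 Sox11 probe sets, 1429051_s_at, kept the fractions apart. It measured 8.40, 7.73 and 8.18 in positive arrays and 8.96, 9.06 and 8.73 in negative arrays, a difference of -0.82 (SE 0.31) and of -0.86 (SE 0.32) without positive replicate 3. The ending s in such a name marks probes that can also bind other transcripts. Apart from 1431225_at, the other 4 depended on the dim array. For 1453125_at the values were 9.34, 7.69 and 5.15 in positive arrays and 8.36, 8.51 and 8.56 in negative arrays, and the difference of -1.08 (SE 0.82) was 0.04 (SE 0.39) without positive replicate 3. For 1429372_at, 1436790_a_at and 1453002_at the differences of -1.28, -1.46 and -1.50 became -0.56, -0.56 and -0.77. In positive replicate 3 these 3 probe sets were below the unspiked control, while the other 3 of the gene were above it. After median centring and on values as deposited, all 6 were negative, at -1.71 to -2.57.

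**Figure D3:**
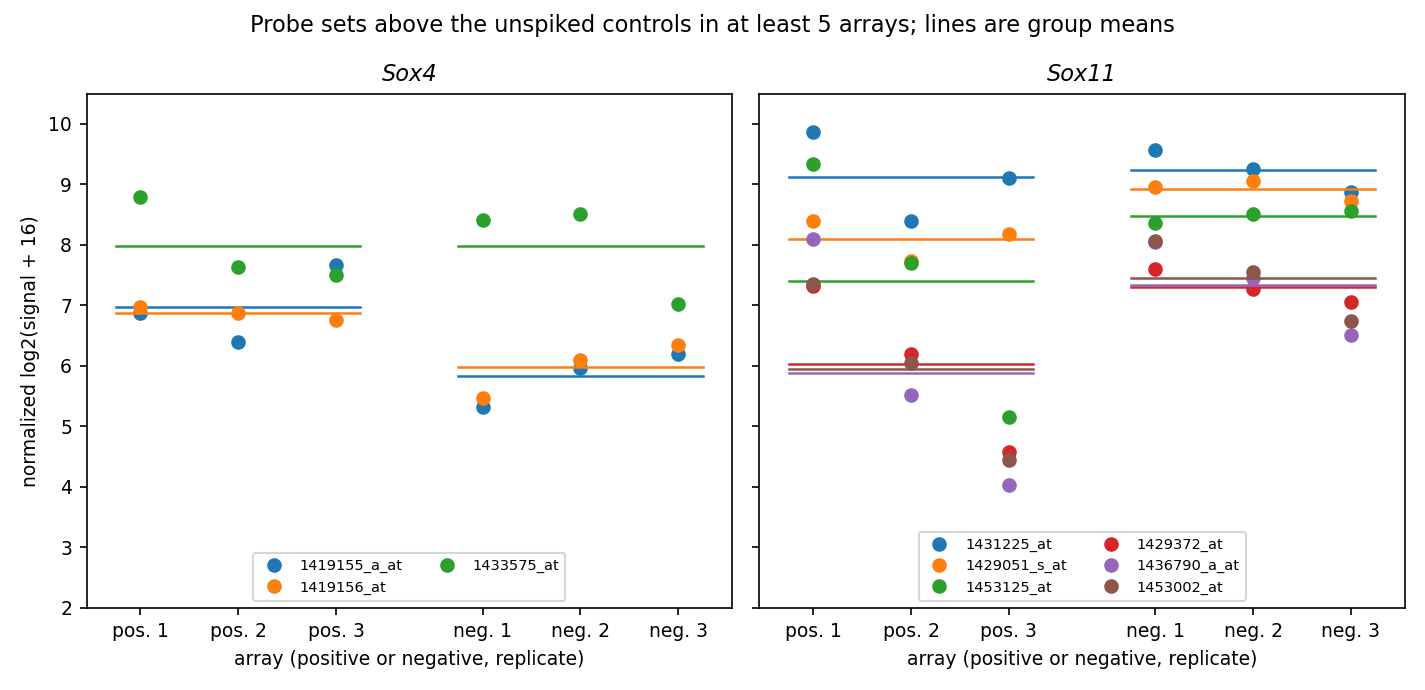
Normalized log2(signal + 16) in each array for the probe sets of Sox4 (left panel) and Sox11 (right panel) that exceeded the unspiked controls in at least 5 arrays; colours give the probe set and lines the group means. In the left panel 2 probe sets lie higher in the positive arrays and the third does not, and 4 Sox11 probe sets drop in positive replicate 3 while 1431225_at and 1429051_s_at do not.

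Sox12, the third SoxC gene, was dimmer. Its brightest probe set, 1455562_at, read 30.7, 20.6 and 0.88 as deposited in positive arrays and 37.6, 40.7 and 18.6 in negative arrays. Normalized, it measured 5.57, 5.59 and 4.52 in positive arrays and 5.26, 5.10 and 6.10 in negative arrays, a difference of -0.26 (SE 0.44), and 0.10 (SE 0.34) without positive replicate 3. The next, 1439754_at, differed by -0.19 (SE 0.37), and by 0.07 (SE 0.31) without that array. The fractions overlapped for all 3 Sox12 probe sets.

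The balance of signs among genes listed as SoxC targets depended on the scaling. Of 9 tested, 3 had positive and 6 negative differences, with a median of -0.26, and none was called over the 6 arrays. Without positive replicate 3, 4 of 9 were positive with a median of -0.12. After median centring 2 of 9 were positive with a median of -0.95, against -0.28 for all genes, and on values as deposited 1 of 9 was positive with a median of -1.15, against -0.48 for all genes. Sema3c, a secreted guidance semaphorin, was the 1 gene called without positive replicate 3 (limma, adjusted p = 0.0322) and had a positive difference, unlike 6 of the 9. It measured 6.82 ± 0.56 in positive and 5.05 ± 0.19 in negative arrays (SD, n = 3 each), and its fractions did not overlap. Tead2, a partner of Yap that Sox4 and Sox11 are known to activate, measured 6.38, 5.98 and 4.12 in positive arrays and 5.92, 6.46 and 7.42 in negative arrays. Its difference of -1.11 (SE 0.63) was -0.43 (SE 0.42) without positive replicate 3. Marcksl1, a regulator of actin, and Nrp1, a receptor for semaphorins, differed by -0.58 (SE 0.41) and -0.44 (SE 0.50), both with overlapping fractions. Tubb3, a neuronal tubulin, was not above the unspiked controls in any array.

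Sox9 was low and its probe sets disagreed. The brightest, 1451538_at, read 11.8, 12.2 and 0.63 as deposited in positive arrays and 16.2, 22.4 and 1.81 in negative arrays. It exceeded the unspiked control in replicates 1 and 2 of each fraction and in neither replicate 3. Normalized, it measured 4.79, 5.12 and 4.41 in positive arrays and 4.68, 4.73 and 4.30 in negative arrays, a difference of 0.20 (SE 0.29), and 0.42 (SE 0.26) without positive replicate 3. After median centring this difference was -0.06 and on values as deposited -0.25. A second probe set, 1424950_at, measured 4.36, 4.57 and 4.03 in positive arrays and 5.07, 4.93 and 4.32 in negative arrays, a difference of -0.45 (SE 0.28). The third, 1433889_at, differed by 0.21 (SE 0.18) and was above the unspiked control in 2 positive arrays and 0 negative arrays. For all 3 the fractions overlapped, and the probe sets differed in sign.

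The 4 genes most like Sox9 over the 6 arrays, among 612, were Slc7a1, a transporter of basic amino acids, Pim3, a kinase, Pawr, a pro-apoptotic factor, and Tmem123, with Pearson's r of 0.951, 0.932, 0.892 and 0.890. In all 4 genes positive replicate 2 was the highest array, and positive replicate 3 or, for Pawr, negative replicate 3 the lowest, so the likeness followed replicates within a fraction. These points share arrays and their signal depth.

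The split of the cartilage genes depended on the dim array and on the scaling. Of 12 tested chondrogenic genes 7 differences were positive and 5 negative, with a median of 0.13. Without positive replicate 3, 1 of 11 was positive, with a median of -0.18 against -0.00 for all genes. After median centring 2 of 11 were positive with a median of -0.43, against -0.28 for all genes, and on values as deposited 0 of 11 were positive with a median of -0.62, against -0.48 for all genes. None was called with or without positive replicate 3. Pth1r, the receptor of parathyroid hormone related protein, had the largest difference of the list, at 5.12 ± 0.70 in positive and 6.63 ± 0.36 in negative arrays (SD, n = 3 each). Col9a1, a cartilage collagen, differed by -0.56 (SE 0.45). The matrilins Matn1 and Matn3 differed by 0.65 (SE 0.47) and 0.71 (SE 0.51) over 6 arrays but by -0.01 and -0.02 without positive replicate 3. Among 13 tested Sox9 targets the median was 0.03 and none was called. That median was -0.16 after median centring and -0.35 on values as deposited. Cdkn1a, a cell cycle inhibitor, differed by 1.60 (SE 0.46) and Etv5, an Ets factor of fibroblast growth factor signalling, by -0.53 (SE 0.24), and neither overlapped between fractions.

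Sox5 and Sox6 lay near background. Of 7 Sox5 probe sets 3 exceeded the unspiked control in no array, and differences ran from -0.09 to 0.10. The brightest, 1423500_a_at, measured 4.76, 4.70 and 4.03 in positive arrays and 4.70, 4.71 and 4.36 in negative arrays. All 4 Sox6 probe sets had a positive difference, from 0.01 to 0.52, after quantile normalization. On values as deposited 1426018_a_at and 1427677_a_at differed by -0.13 and -0.15, and 1447655_x_at and 1434918_at by 0.07 and 0.21. The median of all probe sets lay at -0.22 on that scale. The brightest of Sox6, 1447655_x_at, read 9.90, 13.0 and 0.88 as deposited in positive arrays and 7.49, 10.3 and 1.59 in negative arrays. Normalized, it measured 4.68, 5.17 and 4.52 in positive arrays and 4.35, 4.41 and 4.27 in negative arrays, a difference of 0.44 (SE 0.26), and 0.64 (SE 0.24) without positive replicate 3. The fractions of this probe set did not overlap, but neither replicate 3 was above its unspiked control, and the ending x marks probes shared with other transcripts. A second Sox6 probe set, 1434918_at, differed by 0.52 (SE 0.24) with fractions that overlapped.

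Sox10 had no probe set above the unspiked control in more than 1 array. Its 3 probe sets differed by -0.04 to 0.05, and deposited readings ran from 0.06 to 7.03. Of 14 measured markers of neural crest, glia and melanoblasts, 4 (Foxd3, Fabp7, Cdh19 and Zic1) were in no array above that control, while Erbb3 and Kit were above it in 2 positive arrays and 3 negative arrays each. In positive replicates 1, 2 and 3 the control was exceeded by 5, 4 and 2 of the 14, and in negative replicates 1, 2 and 3 by 7, 7 and 4. Of 10 tested genes of that list 7 had a positive and 3 a negative difference, with a median of 0.19, or -0.04 after median centring, and none was called. Ngfr, the low-affinity neurotrophin receptor, had the largest difference, at 4.34 ± 0.34 in positive and 5.35 ± 0.07 in negative arrays (SD, n = 3 each), with fractions that did not overlap. Erbb3, a neuregulin receptor, S100b, a calcium-binding protein of glia, and Dct, a pigment enzyme, differed by 0.37 (SE 0.43), 0.35 (SE 0.25) and 0.28 (SE 0.16). Among 7 tested Sox10 targets the median was 0.25 and none was called. That median was 0.007 after median centring and -0.18 on values as deposited. The myelin genes Pmp22 and Mbp, which other cells express as well, went in opposite directions, at -1.05 (SE 0.43) and 0.88 (SE 0.31).

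Sox17 and Sox18 were not above the unspiked control in any of the 6 arrays. Both Sox17 probe sets and the Sox18 probe set read at most 6.75 and 5.66 as deposited. Normalized, the brighter Sox17 probe set measured 4.32 ± 0.18 in positive and 4.27 ± 0.02 in negative arrays, and Sox18 measured 4.16 ± 0.16 and 4.13 ± 0.10 (SD, n = 3 each). With every reading below background, neither gene's presence or difference could be measured here.

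Endothelial markers themselves were dim in both fractions. Of 15 tested, 11 differences were positive and 4 negative, with a median of 0.06, or -0.14 on values as deposited, and none was called with or without positive replicate 3. Over all 18 measured, the control was exceeded by 14, 3 and 2 in positive arrays and by 12, 8 and 9 in negative arrays. The summed normalized signal of the 18 was 140, 69.8 and 192 in positive arrays and 86.2, 78.2 and 80.1 in negative arrays. The 192 was thus from positive replicate 3, whose dim readings quantile normalization raised. Pecam1 and Tie1 were above the unspiked control in no array. Egfl7, a secreted endothelial factor, had the largest difference, 1.04 (SE 0.61), which was 0.28 (SE 0.24) without positive replicate 3, where another of its probe sets was the brightest. Cldn5, Erg and Eng, a tight junction protein, an Ets factor and a TGF-beta co-receptor of endothelium, differed by 0.30, -0.25 and -0.18. The 3 tested lymphatic markers had a median of 0.20, with Lyve1, Pdpn and Flt4 at 0.24, 0.20 and -0.16, and Prox1 above the control in no array.

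Among 13 tested SoxF targets the median was 0.06 and none was called over 6 arrays. Without positive replicate 3 the median was 0.22, with 10 of 14 positive. On values as deposited the median was -0.13, with 4 of 14 positive, against -0.48 for all genes. Foxa2, an endodermal pioneer factor, was called without positive replicate 3 (limma, adjusted p = 0.00545) and measured 6.57 ± 1.02 in positive and 4.04 ± 0.03 in negative arrays (SD, n = 3 each). Its fractions did not overlap. Vcam1, an adhesion molecule, and Ccnd1, the cyclin D1 gene, differed by -1.01 (SE 0.53) and -0.66 (SE 0.47).

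**Figure D4:**
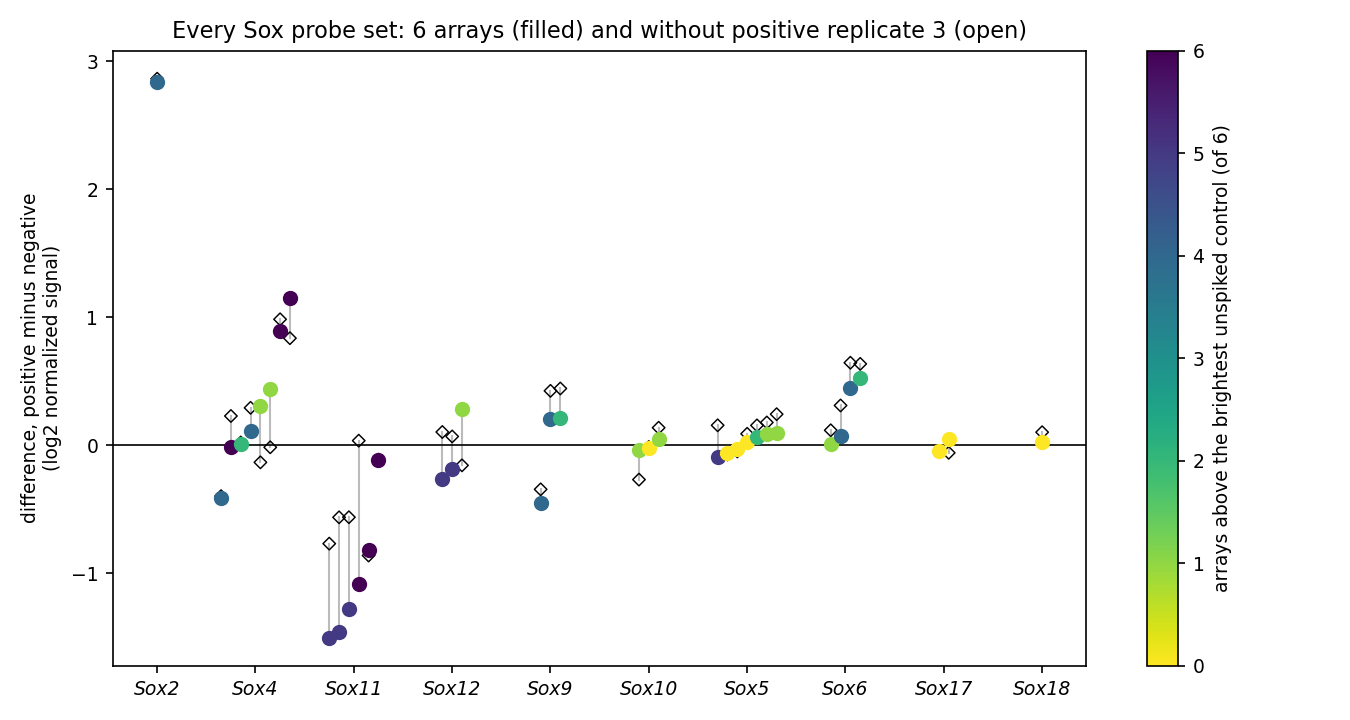
Log2 difference, positive minus negative, for each of the 38 Sox probe sets over 6 arrays (filled points) and without positive replicate 3 (open diamonds); colour gives the number of arrays in which the probe set exceeded the brightest unspiked control. Sox2 lies near 2.84 in both, the Sox11 probe sets lie below 0 over 6 arrays, and 4 of them move toward or past 0 without the dim array while 1429051_s_at moves slightly away, and the palest points of Sox10, Sox5, Sox17 and Sox18 lie near 0.

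Across all 38 probe sets, 21 differences were positive and 17 negative, with a median of 0.02. Fractions did not overlap for 6 of the 38, all of them among the 32 tested, where 12.2% of all tested probe sets did not overlap. Of these 6, 4 were higher in positive arrays (Sox2, 2 of Sox4 and 1 of Sox6) and 2 lower (1 of Sox4 and 1 of Sox11). Of the 38, 6 exceeded the unspiked control in all arrays, 3 of Sox4 and 3 of Sox11, and 15 did so in at most 1 array.

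The remaining family members on the array gave no further call. Sox1, Sox3, Sox7, Sox8, Sox13, Sox14, Sox15, Sox21, Sox30 and Sry had 15 probe sets, of which 7 exceeded the unspiked control in no array. Of these 10 genes 7 were tested, with a median difference of 0.36 over 6 arrays, 0.15 without positive replicate 3 and 0.05 after median centring, and none was called in either fit. Sox21, a SoxB2 gene that opposes Sox2 in neural tissue, read 35.3, 7.14 and 0.48 as deposited in positive arrays and 8.0, 13.0 and 4.29 in negative arrays, so positive replicate 1 alone was high. Sox7, the third SoxF gene, had 1 probe set, 1416564_at, with fractions that did not overlap, at 8.03, 2.69 and 0.59 as deposited in positive arrays and 0.26, 0.35 and 0.21 in negative arrays. Only positive replicate 1 exceeded its unspiked control there, and the difference was 0.39 (SE 0.13). The second Sox7 probe set differed by 0.50 (SE 0.41), and by -0.09 without positive replicate 3. Sox14 and the brighter Sry probe set differed by 0.36 and 0.46 over 6 arrays and by -0.05 and -0.09 without positive replicate 3. Sox3, Sox13 and Sox15 differed by -0.05, 0.04 and 0.18, all with overlapping fractions. Sox1, Sox8 and Sox30 did not pass the filter and were above the control in no array.

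**Figure D5:**
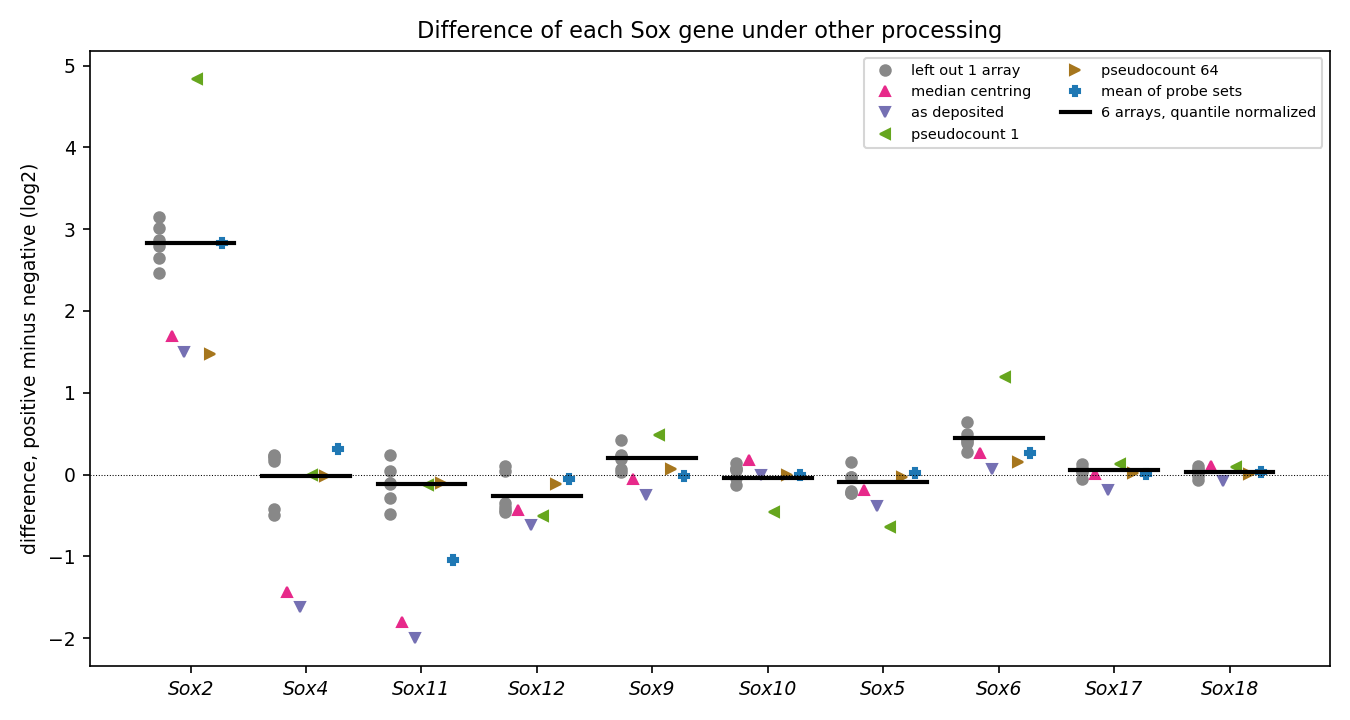
Log2 difference, positive minus negative, of each Sox gene by its brightest probe set (black bars) and under other processing (coloured symbols, grey for each of the 6 arrays left out in turn). Sox2 lies above 0 under every setting drawn. By their brightest probe sets, Sox4 and Sox11 lie at -0.49 to 0.24 after quantile normalization. They lie at -1.43 to -1.99 after median centring or as deposited. With the mean of probe sets, also quantile normalized, Sox4 is at 0.31 and Sox11 at -1.04. The other genes lie between -0.64 and 1.2 under every setting drawn.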

How the data were processed

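RNA from the sorted cells was biotin-labelled for one-colour Affymetrix arrays, per the labels' protocols. What the authors deposited is a linear intensity for every probe set on every array, the scale being judged from the values. The submitters' processing notes name GCOS for 1 of 6 samples, and the sources used here do not state summarization or scaling. Per the labels the tubercle was cut at its base, dissociated in trypsin and sorted, and pool sizes and successive title numbers match each positive array to a negative one, though no label says that matched arrays came from the same embryos.

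After removal of 64 control probe sets, the other 45037 were quantile normalized, then taken as log2(signal + 16). The added 16 shrinks changes of dim genes, but quantile normalization raised dim readings of positive replicate 3. Sox4 probe set 1443778_at read 1.41 there as deposited and 5.38 normalized, and its difference of 0.44 became -0.02 without that array. Background was the brightest of 27 unspiked bacterial controls. Probe sets with 1 gene (34945, with 932 several and 9160 unnamed) took symbols from RefSeq GRCm38.p6, which matched 34741. Groups were compared with limma 3.58.1 (R 4.3.3; lmFit, eBayes with trend, Benjamini-Hochberg, threshold 0.05), in 1 fit over 14071 genes by their brightest probe set and another over 31526 probe sets, both above the 30th percentile of mean signal. SEs of Sox probe sets come from the second fit, those of list genes from the first. The fit alone was tested on simulated log2 values of 14071 genes in 6 arrays. It recovered 5% of changes of 1, 71.6% of changes of 2 and 98.8% of changes of 3 on the log2 scale. The simulated noise had the same SD for every gene of an array, unlike real data, so real recovery can be lower. Normalization, the filter and the choice of probe set were not tested. The p-values set the difference between fractions against the spread between arrays, each a pool of embryos. The 3 arrays per fraction limit precision.

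The members and 16 gene lists, written from textbook knowledge, were chosen with earlier results of these data known. Named genes are all members, all other Sox genes, up to 4 genes per list by the largest difference (and those in no array above background), and the 4 genes most like Sox2 and Sox9.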

Additional observations from a re-analysis of the deposited data

How the results depend on the processing

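Sox2 was higher in positive arrays under all 17 alternatives, at 1.48 to 4.84, and passed an adjusted p of 0.05 in 6 of them (limma). Those 6 ran from 7 of 14022 genes called, with a pseudocount of 1, to 480 of 14071, with array weights. They also include replicates 1 and 2 only. Since Sox2 was chosen with this comparison known, the count is a description and no independent test. Sox6, by its brightest probe set or the mean of its probe sets, also kept its sign in all 17. Of its other probe sets, 1434918_at kept it in 16 of 16, but 1426018_a_at and 1427677_a_at in 11 and 12. By the same measure Sox4, Sox5, Sox9, Sox10, Sox11, Sox12, Sox17 and Sox18 each changed sign in 2 to 6 of the 17. Over the 10 genes, 152 of 170 values stayed within 1 SD of replicates. This count overstates stability, since the replicate block, the changes of filter and the fit with no intensity trend cannot change a difference. The number of genes called (2 over 6 arrays) ran from 0 to 84 when 1 array was left out, with 22, 4 and 84 without positive replicates 1, 2 and 3 and 0 without any 1 negative array (limma, 260 to 597 at an unadjusted p under 0.05). It was 33 with median centring, 7 with a pseudocount of 1, 11 for genes above the unspiked control in 3 arrays, 480 with array weights and 27 for replicates 1 and 2 only, a choice made after seeing the data. It was 0 on values as deposited, with a pseudocount of 64 and with the mean of probe sets (limma, 401, 663 and 775 at an unadjusted p under 0.05). The number of probe sets called (4) ran from 0 to 139 when 1 array was left out, with 14, 8 and 139 without positive replicates 1, 2 and 3, 12 without negative replicate 2, and 0 without negative replicate 1 or 3 (limma, 506 and 1135 at an unadjusted p under 0.05). It was 36 with median centring, 9 with a pseudocount of 1 and with no filter, 18 above the unspiked control in 3 arrays, 742 with array weights and 97 for replicates 1 and 2 only. It was 0 as deposited, with a pseudocount of 64 and with no intensity trend (limma, 965, 1238 and 1606 at an unadjusted p under 0.05). With a replicate block by pool size 2 genes and 0 probe sets were called (limma, 1499 probe sets at an unadjusted p under 0.05). Pool sizes match across fractions but no label states a shared litter, and deviations of arrays with the same number correlated at 0.033 to 0.127, those of unlike number at -0.131 to 0.063. The cause of these shifts was not tested. Signal limits every array, positive replicate 3 most, and a gene below the unspiked controls has no measurable difference.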

Other observations

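Neuron and muscle markers were also counted against the unspiked controls, in replicate order. Of 9 measured neuron markers 6, 1 and 3 exceeded the control in positive arrays and 6, 4 and 5 in negative arrays. Of 10 skeletal muscle markers 3, 1 and 3 did so in positive arrays and 8, 2 and 3 in negative arrays. Of 7 tested neuron markers 5 had a positive difference, the median was 0.11, or -0.16 after median centring, and none was called. The neurofilament gene Nefl, with the largest difference, measured 6.32, 4.44 and 4.02 in positive arrays and 6.44, 6.31 and 6.10 in negative arrays. Nefm, a second neurofilament gene, measured 5.42, 4.19 and 4.32 in positive arrays and 5.90, 6.27 and 5.17 in negative arrays. As with the mesenchymal list, positive replicate 1 alone of the positive arrays lay near the negative ones for Nefl. Of 8 tested skeletal muscle markers 5 differences were positive and 3 negative, the median was 0.06 and none was called.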
